A study of Mus musculus with 6 samples.

Results

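The aryl hydrocarbon receptor (AhR) genes described here are the receptor Ahr, its partner Arnt, its repressor Ahrr, and 3 genes taken as its targets or as a source of its ligands, Tiparp, Cyp1b1 and Il4i1. They were chosen by symbol and role, as AhR genes outside the NRF2 target set. No threshold on their values was used, but earlier results of these data were known. The lists of related genes below were also chosen with those results known, so their called shares are descriptive. All 6 AhR genes were found among the 40213 gene symbols of the count tables. RNA was sequenced from bone marrow-derived macrophages of C57BL/6 mice, cells that macrophage colony-stimulating factor (25 ng/ml, 4 days, 10% serum) drives from marrow precursors toward the macrophage lineage. In the MNP group 3 samples were exposed for 24 h to 50 µg of polystyrene micro- and nanoplastics (MNP), and 3 control samples had no particles. The culture volume, particle size and particle surface are not stated, no other particle serves as a control, and nothing says whether replicates came from separate mice or cultures, so p-values measure only the spread between these samples.

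AhR is a ligand-activated transcription factor of the bHLH-PAS family. At rest it sits in the cytosol with HSP90 and the co-chaperone p23. Planar aromatic pollutants, tryptophan metabolites and microbial indoles release it to the nucleus, where it pairs with ARNT and binds response elements with the core GCGTG. Among its best known targets are CYP1 enzymes, which can break its ligands down, and the feedback inhibitors AHRR, which competes for ARNT, and TIPARP, which ADP-ribosylates AhR. In macrophages AhR is known for restraining inflammatory cytokine output and for its part in interleukin 10 production.

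The stretches upstream of the start sites of 3 classical targets are shown because the 2 feedback genes among them were the genes that fell. Each is the 250 bases before the RefSeq start, 5′ to 3′ on the strand of the gene, in build GRCm38.p6, which is older than the GRCm39 named in the submitters' processing notes. Capitals mark every match to the core GCGTG on either strand, so that a match on the opposite strand reads CACGC.

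Ahrr, chr13:74292332-74292581, minus strand: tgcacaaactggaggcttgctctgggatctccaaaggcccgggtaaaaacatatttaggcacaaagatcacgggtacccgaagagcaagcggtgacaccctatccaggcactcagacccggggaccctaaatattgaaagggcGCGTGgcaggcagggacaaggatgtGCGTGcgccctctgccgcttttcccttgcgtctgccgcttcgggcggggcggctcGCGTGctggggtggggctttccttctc

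Tiparp, chr3:65528197-65528446, plus strand: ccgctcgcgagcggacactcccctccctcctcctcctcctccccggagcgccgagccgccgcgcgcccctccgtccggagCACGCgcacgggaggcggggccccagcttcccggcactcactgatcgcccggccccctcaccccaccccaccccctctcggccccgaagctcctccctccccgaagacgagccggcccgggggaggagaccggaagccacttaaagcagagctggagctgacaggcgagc

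Cyp1b1, chr17:79715062-79715311, minus strand: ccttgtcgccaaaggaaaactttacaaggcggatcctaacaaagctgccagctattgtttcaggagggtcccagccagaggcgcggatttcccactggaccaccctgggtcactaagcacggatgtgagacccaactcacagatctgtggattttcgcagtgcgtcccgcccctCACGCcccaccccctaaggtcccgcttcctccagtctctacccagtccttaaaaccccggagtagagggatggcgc

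The Ahrr stretch held 3 matches, all on the strand of the gene, with their first base at positions -107, -82 and -27 counted from the start, and the one at -27 also lay in the longer form TNGCGTG. Tiparp and Cyp1b1 held 1 match each, both on the opposite strand, at -170 and -76. Arnt held 1, at -29, and Il4i1 0. Of 32851 such stretches in the table, 28.2% held at least 1 match on either strand, 2.77% at least 3, and 4.10% the longer form, which contains the core. A match is a description of the letters and does not show binding.

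Library totals ran from 20262859 to 23042146 counts, which makes 1 count worth 0.0434 to 0.0494 CPM (a count scaled to a common library size). All levels below are CPM adjusted by TMM library factors and, where averaged, are given as mean ± SD of 3 libraries. Every control library held a count for more genes (24062, 20935, 20222 by replicate number) than any MNP library (18672, 18655, 18240). The bearing of this difference on scarce genes such as Cyp1b1 was not tested. MNP 1 carried 1.02% of its counts on the structural RNA Gm26917, against 0.251% to 0.444% elsewhere. Of the macrophage markers, 10 of 10 were tested, among them the growth factor receptor Csf1r at 1400.2 ± 74.2 CPM in controls and 1337 ± 39.2 in MNP libraries, and 6 of the 10 were called lower with MNP, as described with the other markers. Genes were tested with edgeR's quasi-likelihood test, and a gene was called changed at a Benjamini-Hochberg adjusted p under 0.05 over all 12893 tested genes. By that rule 17.5% of tested genes were called, 9.11% higher and 8.35% lower in MNP libraries (1174 and 1076 genes). Scaled by library totals alone the split was 757 higher and 1941 lower.

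Of the 6 AhR genes, 5 passed the expression filter, and of these 2 were called, both lower with MNP: Ahrr and Tiparp. Over all tested genes 17.5% were called, 8.35% in the lower direction. The 3 others that were tested (Ahr, Arnt and Il4i1) were not called, and Cyp1b1 was too scarce to test. The median log2 fold change of the 5 was -0.42, beside -0.01 over all tested genes. The groups did not overlap for 3 of the 5 (Ahr, Ahrr and Tiparp), beside 34.6% of all tested genes.

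Ahrr, the repressor that AhR itself induces, had the largest change among the 5 tested AhR genes. Its level was 25.7, 20.1 and 26.1 CPM in controls 1 to 3 and 8.12, 7.26 and 6.50 CPM in MNP libraries 1 to 3. Every MNP library lay below the lowest control by more than the spread within either group. Ahrr fell 3.28-fold, from 24.0 ± 3.33 to 7.29 ± 0.810 CPM (log2 fold change -1.72 ± 0.13 SE, 95% interval -2.0 to -1.43, edgeR adjusted p = 8.63e-07). The raw counts behind these levels were 536, 463 and 615 in controls and 168, 161 and 136 in MNP libraries, so counting error is small beside the difference. By the size of the log2 fold change, in either direction, Ahrr lay at percentile 98.3 of the 12893 tested genes, and by p-value it ranked 111. Without MNP 1 the log2 fold change was -1.79, and without control 1 it was -1.66.

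Tiparp, the mono-ADP-ribosyltransferase also named PARP7, is the other feedback gene of the receptor and fell less. Its level was 84.9, 84.0 and 85.0 CPM in controls 1 to 3 and 65.2, 62.0 and 62.7 CPM in MNP libraries 1 to 3. The 3 controls were nearly alike, and all MNP libraries lay below them. Tiparp fell 1.34-fold, from 84.6 ± 0.596 to 63.3 ± 1.67 CPM (log2 fold change -0.42 ± 0.06 SE, 95% interval -0.55 to -0.29, edgeR adjusted p = 0.00025). Its interval and that of Ahrr did not overlap, and the difference between them was not tested directly. Without MNP 1 the log2 fold change of Tiparp was -0.44, and without control 1 it was -0.41. The pseudogene 4931440P22Rik overlaps Tiparp on the opposite strand in the GENCODE vM21 annotation, but it had only 7 to 20 counts in a library, against at least 1312 for Tiparp.

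**Figure D1:**
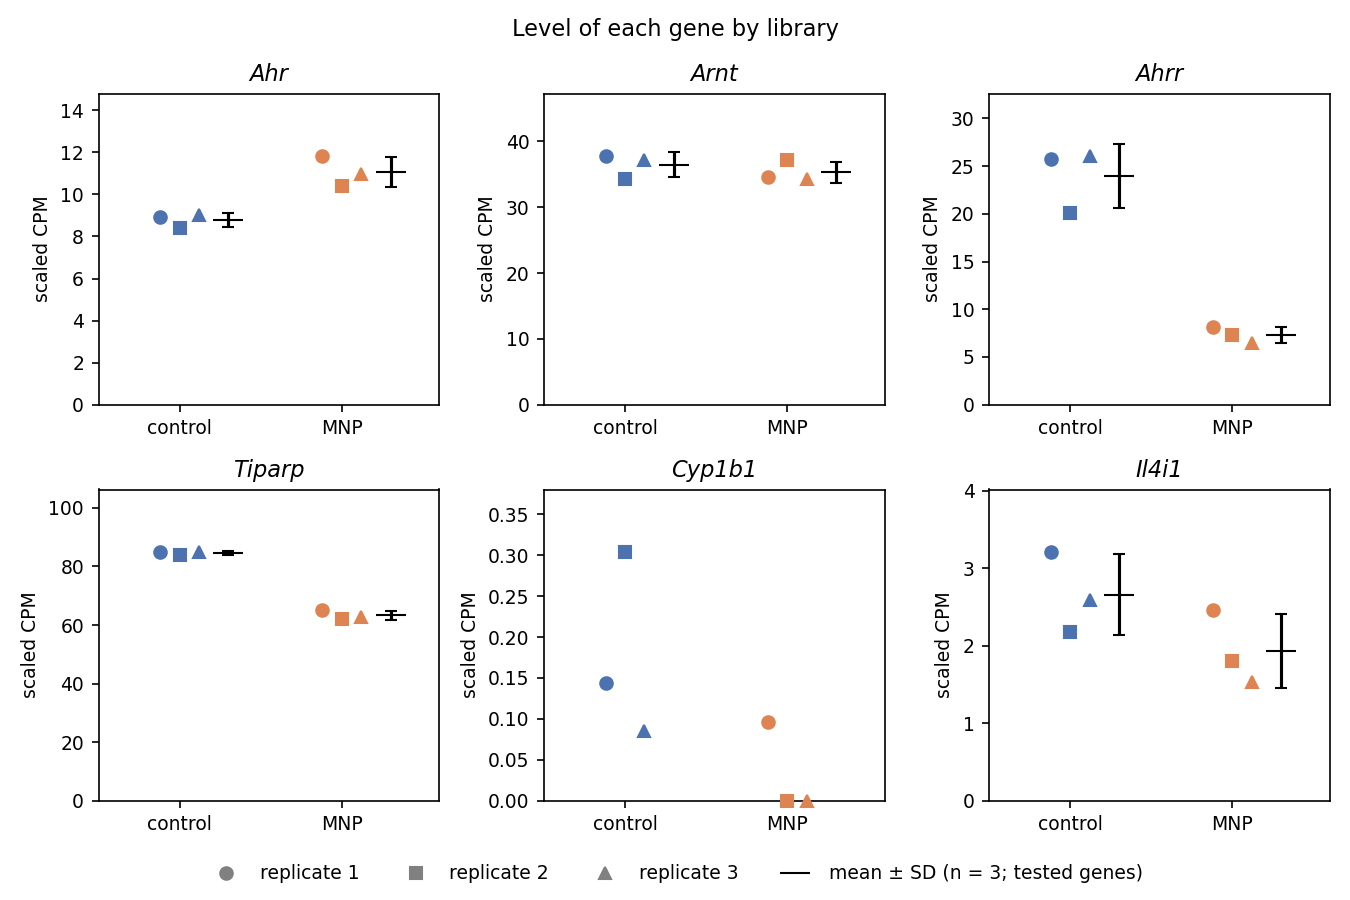
Scaled CPM (y axis, from 0, a separate scale for each gene) of the 6 AhR genes in each of 3 control (blue) and 3 MNP libraries (orange), with symbols for the replicate number and black bars for mean ± SD of the tested genes. Ahrr drops from between 20.1 and 26.1 to between 6.50 and 8.12 CPM, Tiparp drops by less, Ahr sits slightly higher with MNP, and Arnt and Il4i1 overlap between groups.

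Ahr, the receptor itself, was not called, and its estimate had the opposite sign. Its level was 8.91, 8.39 and 9.03 CPM in controls 1 to 3 and 11.8, 10.4 and 11.0 CPM in MNP libraries 1 to 3. All 3 MNP libraries lay above all 3 controls. The log2 fold change was 0.34 ± 0.12 SE (1.26-fold, edgeR adjusted p = 0.0732), with an unadjusted 95% interval of 0.08 to 0.59. Ahr rested on 186 to 245 counts a library. In the GENCODE annotation it overlaps the long non-coding RNA gene Gm48236 on the opposite strand, which was not analysed here.

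Arnt, the partner without which AhR does not bind its elements and which also pairs with hypoxia-inducible factors, gave no difference that the test could call. Its level was 37.8, 34.3 and 37.2 CPM in controls and 34.6, 37.1 and 34.3 CPM in MNP libraries, and the groups overlapped. The log2 fold change was -0.04 ± 0.08 SE (edgeR adjusted p = 0.749), with a 95% interval of -0.21 to 0.12, so a change as large as that of Tiparp lies outside the interval.

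Il4i1, an L-amino acid oxidase that turns tryptophan into indole-3-pyruvate, a source of AhR ligands, was low. Its level was 3.21, 2.17 and 2.59 CPM in controls and 2.46, 1.80 and 1.53 CPM in MNP libraries, from 32 to 67 counts a library. The groups overlapped, and the log2 fold change of -0.46 ± 0.29 SE did not pass (edgeR adjusted p = 0.321, 95% interval -1.09 to 0.17). The interval is wide enough to hold both no change and a decrease of about 2-fold. In the GENCODE annotation Il4i1 overlaps Nup62 on the same strand and Atf5 and Tbc1d17 on the other. Nup62, a nuclear pore protein, rose from 45.8 ± 2.17 to 63.6 ± 1.77 CPM (edgeR adjusted p = 0.000305), and the stress factor Atf5 rose from 7.45 ± 1.08 to 15.1 ± 1.94 CPM (edgeR adjusted p = 2e-04). Tbc1d17 was at 25.6, 25.0 and 21.2 CPM in controls and 21.4, 19.0 and 21.2 CPM in MNP libraries and was not called (log2 fold change -0.22, edgeR adjusted p = 0.157). All 3 are more abundant than Il4i1, whose estimate has the sign of that of Tbc1d17 and not of the other 2. How reads were shared among these genes is not given in the sources used here, so the level of Il4i1 is uncertain.

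Cyp1b1, the CYP1 enzyme most often found outside the liver, was close to the counting limit. It had 3, 7 and 2 counts in controls 1 to 3 and 2, 0 and 0 in MNP libraries 1 to 3, where 3 counts correspond to 0.130 to 0.148 CPM before scaling. Summed over a group this was 12 counts in controls (exact Poisson 95% interval 6.20 to 21.0) and 2 in MNP libraries (0.242 to 7.22). The MNP to control ratio of the sums was 0.166, with an exact interval of 0.018 to 0.745 that covers counting error only. Controls ranged more than 3-fold in count, and with no expression filter the gene was not called (edgeR adjusted p = 0.501).

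**Figure D2:**
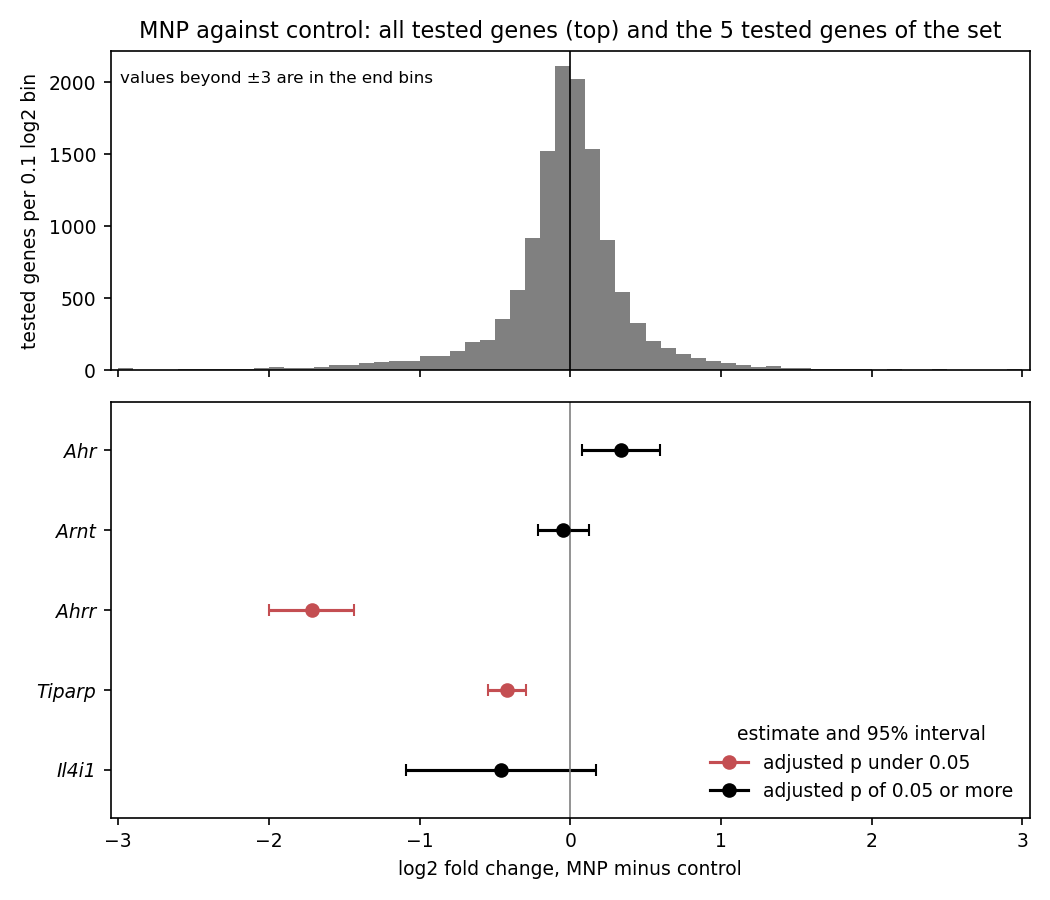
Top: number of tested genes (y axis) by log2 fold change, MNP minus control (x axis), in bins of 0.1, with values beyond the axis in the end bins. Bottom: estimate and 95% interval for the 5 tested AhR genes, in red where the adjusted p is under 0.05. Ahrr at -1.72 lies in the far left tail, while Tiparp at -0.42, Il4i1, Arnt and Ahr lie within the bulk.

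The balance of repressor to receptor can also be read inside each library, where library scaling cancels. This ratio was chosen after the values were seen. Ahrr had 2.88, 2.40 and 2.89 counts for each Ahr count in controls 1 to 3 and 0.686, 0.697 and 0.591 in MNP libraries 1 to 3. Ahrr outnumbered Ahr in every control, and Ahr outnumbered Ahrr in every MNP library, so the mean ratio was 4.14-fold lower with MNP. Tiparp had 9.53, 10.0 and 9.41 counts for each Ahr count in controls and 5.50, 5.95 and 5.70 in MNP libraries. Ahr had 0.236, 0.245 and 0.243 counts for each Arnt count in controls and 0.343, 0.281 and 0.321 in MNP libraries, and the groups did not overlap. For Ahrr per Ahr and Tiparp per Ahr, the separation follows from the levels above, which moved in opposite directions without overlap. The ratios were not tested, and Ahr itself was not called.

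**Figure D3:**
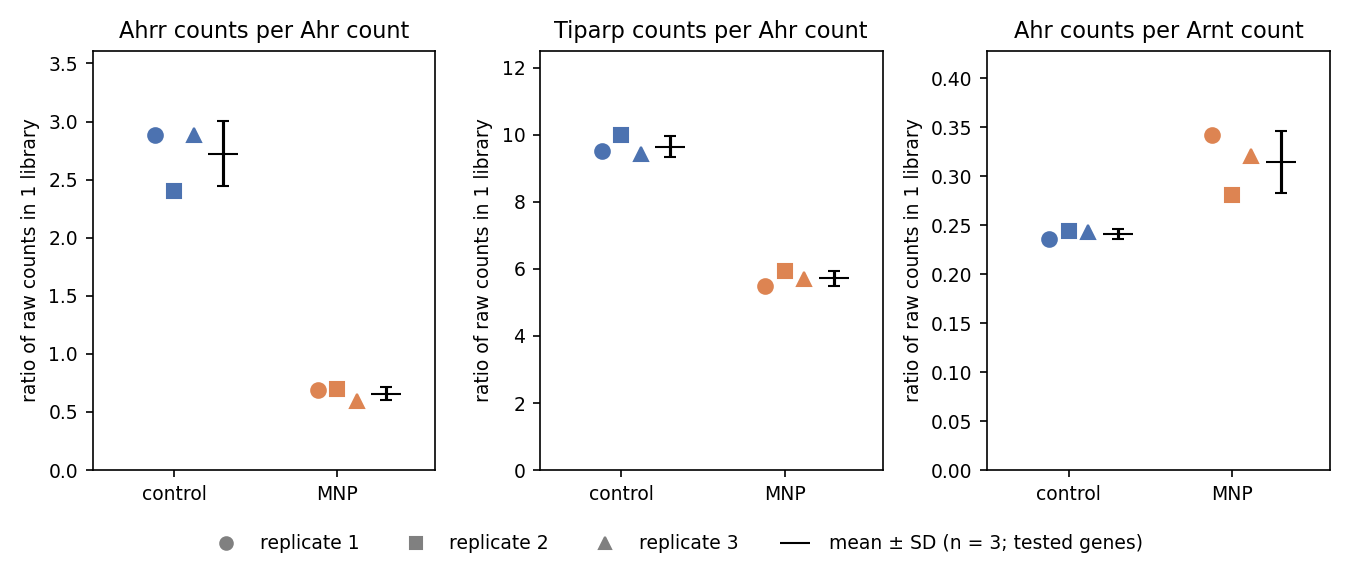
Ratio of raw counts of 2 genes within 1 library (y axes, from 0) for Ahrr per Ahr, Tiparp per Ahr and Ahr per Arnt in 3 control (blue) and 3 MNP libraries (orange), with mean ± SD in black. Ahrr per Ahr is between 2.40 and 2.89 in controls and between 0.591 and 0.697 in MNP libraries. None of the 3 ratios overlaps between groups, which for Ahrr per Ahr and Tiparp per Ahr follows from the levels of these genes.

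Levels of different genes were compared per kilobase of merged exons, with lengths from GENCODE vM21 on the older build. In controls the order was Tiparp (19.4 ± 0.137 CPM per kb), Arnt (4.55 ± 0.234), Ahrr (2.54 ± 0.353), Ahr (1.42 ± 0.0555), Il4i1 (0.651 ± 0.128) and Cyp1b1 (0.0304, from 12 counts in all). In MNP libraries Tiparp (14.5 ± 0.383) and Arnt (4.41 ± 0.196) stayed on top, but Ahr (1.80 ± 0.116) stood above Ahrr (0.772 ± 0.0858), followed by Il4i1 (0.474 ± 0.118). Neighbours in the order of the 5 tested genes did not overlap between libraries in either group. The lowest control level of Ahrr, 2.13 CPM per kb, was above the highest of Ahr, 1.47, and the lowest MNP level of Ahr, 1.69, was above the highest of Ahrr, 0.860. In the MNP group Il4i1 reached 0.604 CPM per kb and Ahrr went down to 0.688, which is the narrowest gap between neighbours.

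The cytosolic complex that holds AhR at rest was higher with MNP for 3 of its 5 tested genes and lower for 0. The median log2 fold change was 0.27. Of all tested genes, 9.11% were called higher and 8.35% lower. Hsp90ab1, the constitutive HSP90, went from 1364 ± 31.0 to 1649 ± 72.3 CPM (log2 0.27 ± 0.06 SE, edgeR adjusted p = 0.00383). Ptges3, which encodes p23, went from 140.4 ± 10.1 to 177 ± 3.13 CPM (log2 0.33, edgeR adjusted p = 0.00203). Hsp90aa1, the inducible HSP90, rose by 0.30 on the log2 scale (edgeR adjusted p = 0.0112) but was not called without MNP 3 (0.0637) or with library totals alone (0.0538). HSP90 genes have processed copies, so their counts depend on how shared reads were assigned. Among 6 genes of AhR export and turnover only the exportin Xpo1 was called, higher with MNP (250.5 ± 15.1 to 312 ± 14.9 CPM, edgeR adjusted p = 0.00282), and the ligase genes Cul4b, Ddb1 and Stub1 had log2 fold changes between -0.02 and 0.01.

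Of 17 coactivators, corepressors and other AhR partners, 2 were higher, 1 was lower and 14 were not called. Over all tested genes the called share was 17.5%. Of those called, Hdac4, a class IIa deacetylase, rose from 32.2 ± 3.42 to 42.7 ± 0.0494 CPM (edgeR adjusted p = 0.00479). Relb, the NF-kB subunit that can pair with AhR in place of ARNT, fell from 23.2 ± 1.80 to 15.2 ± 1.90 CPM (log2 -0.61 ± 0.11 SE, edgeR adjusted p = 0.00167). The coactivators Ncoa1, Ncoa3, Ep300 and Crebbp were not called, with log2 fold changes from -0.07 to 0.17. Of the 6 other tested bHLH-PAS genes, 1 was called, Npas4, an activity-dependent factor best known from neurons (14.1 ± 2.30 to 21.5 ± 1.71 CPM, edgeR adjusted p = 0.00379). Hif1a, which shares Arnt as its partner, was at 200.5 ± 15.5 and 199 ± 12.2 CPM.

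The xenobiotic genes often called the AhR battery were called in both directions, and 4 of the 9 were too scarce to test. Cyp1a1 had 3 counts in 1 control and 0 in the other 5 libraries, and Cyp1a2 had 0 in all 6. Of the 5 genes tested, 3 were higher and 1 lower (median log2 fold change 1.17), beside 9.11% and 8.35% of all tested genes. The quinone reductase gene Nqo1, which NRF2 also induces, rose from 2.35 ± 0.832 to 21.2 ± 1.35 CPM, the largest increase among the tested genes of this list. Gsta1, which was not tested, had 0, 2 and 0 counts in controls and 12, 11 and 6 in MNP libraries. The glucuronosyltransferase genes Ugt1a6a and Ugt1a6b rose 2.24-fold and 2.40-fold (edgeR adjusted p = 0.000128 and 0.00457), but they share exons of 1 locus and their separate counts are uncertain. The exporter gene Abcg2 fell from 16.1 ± 1.10 to 12.0 ± 0.565 CPM (edgeR adjusted p = 0.0124), a call lost when control 2, control 3, MNP 1 or MNP 3 was left out (0.0542 to 0.0639).

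Of 19 other genes reported as AhR targets in one tissue or another, 9 were tested, with a median log2 fold change of -0.65. Among the 9, 5 were lower and 0 higher, beside 8.35% and 9.11% of all tested genes. Entpd1, the ectonucleotidase CD39, fell from 208 ± 14.6 to 123 ± 3.35 CPM (log2 -0.76 ± 0.06 SE, edgeR adjusted p = 1.64e-06). Il10, the anti-inflammatory cytokine, was at 3.13 ± 0.450 CPM in controls and 1.07 ± 0.170 in MNP libraries (log2 -1.54 ± 0.29 SE, edgeR adjusted p = 0.00247), from 62 to 75 and 20 to 26 counts. The selenium-binding protein gene Selenbp1 fell from 9.49 ± 2.0 to 5.80 ± 0.555 CPM (edgeR adjusted p = 0.0109, and 0.0581 without MNP 2). Il1b was called lower from 1.87 ± 0.555 to 0.693 ± 0.196 CPM (edgeR adjusted p = 0.0264), but the call was lost without control 2, control 3, MNP 2 or MNP 3 (0.0611 to 0.132). The fifth, Vegfa, named after its values were seen, was 86.4 ± 1.04 and 75.5 ± 2.95 CPM (edgeR adjusted p = 0.0407), and its call was lost when any 1 of the 6 libraries was left out (0.0682 to 0.138). Nfe2l2, which encodes NRF2, was not called (317 ± 27.7 and 297 ± 10.2 CPM, edgeR adjusted p = 0.359), and Ptgs2 was at 2.59 ± 0.585 and 4.22 ± 0.625 CPM (edgeR adjusted p = 0.0632).

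Genes of tryptophan and kynurenine metabolism and transport, which include enzymes that use these molecules up, were mostly scarce, and 8 of 17 were tested. Among the 8, 2 were higher and 1 lower, beside 9.11% and 8.35% of all tested genes. Kmo, the kynurenine hydroxylase, fell from 2.75 ± 0.603 to 0.635 ± 0.328 CPM (log2 -2.12 ± 0.42 SE, edgeR adjusted p = 0.00316), from 44 to 76 counts in controls and 6 to 19 in MNP libraries. Slc3a2 and Slc7a5, the subunits of the transporter that brings in tryptophan and kynurenine, were the 2 genes called higher. Slc3a2 went from 129 ± 7.13 to 179.6 ± 3.40 CPM (edgeR adjusted p = 5.14e-05). Slc7a5 went from 3.31 ± 0.0745 to 5.03 ± 0.227 CPM (edgeR adjusted p = 0.0385), a call lost with library totals alone (0.0660) and without any 1 of controls 1 to 3, MNP 2 or MNP 3 (0.0600 to 0.123). The ring-opening dioxygenase genes Ido1, Ido2 and Tdo2, which start the kynurenine route, had 0 or 1, 1 to 15 and 0 to 7 counts a library and were not tested.

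**Figure D4:**
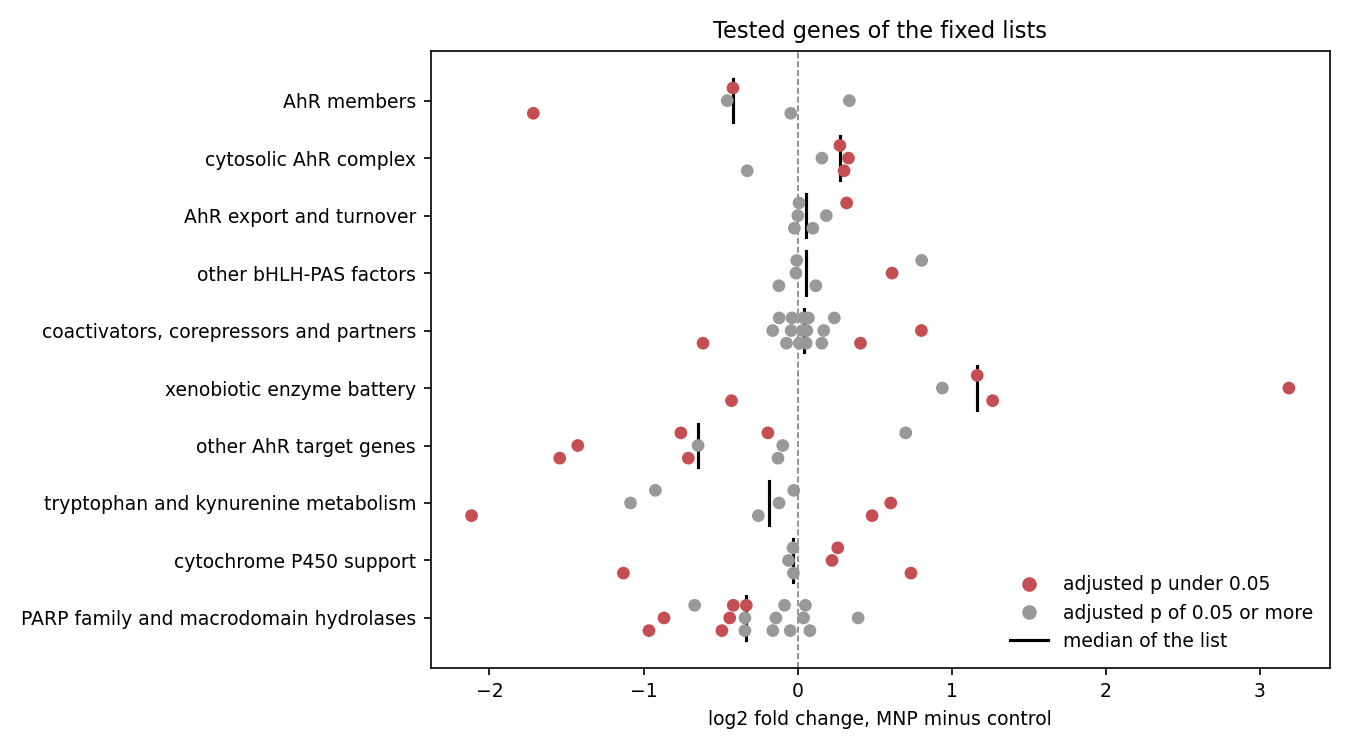
Log2 fold change, MNP minus control (x axis), of each tested gene in the 10 lists of AhR-related genes (rows), red where the adjusted p is under 0.05, with a black bar at the median of each list. List medians run from -0.65 for the other AhR target genes to 1.17 for the xenobiotic enzyme battery. Ahrr stands at -1.72 among the 5 AhR genes tested. Nqo1 at 3.19 is the point farthest to the right, and Kmo at -2.12 the point farthest to the left.

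Markers of other cells were read beside these results, since in a bulk sample fewer cells of a type and less RNA per cell cannot be told apart. Of 8 dendritic cell markers, 6 were tested and 1, Siglech, was called lower (1.80 ± 1.04 to 0.359 ± 0.109 CPM, edgeR adjusted p = 0.00836, and 0.0774 without control 2 or 0.0594 without MNP 3). Their summed level was 399.9 to 470.3 CPM in controls and 355 to 391 in MNP libraries, nearly all of it Itgax, which macrophages also express, while Flt3, Zbtb46, Xcr1, Clec9a and Cd209a were below 1 CPM on average in each group. Of 8 neutrophil markers, 7 were tested and 4 were lower (S100a9, Mpo, Ngp and Ltf), with a summed level of 181 to 269 CPM in controls and 132 to 152 in MNP libraries, and Ly6g had 0 to 2 counts. Over all tested genes, 8.35% were called lower. The call of Ngp was lost without control 2, control 3 or any 1 MNP library (edgeR adjusted p 0.0568 to 0.0910). Among the macrophage markers, C1qa (log2 fold change -0.60), Fcgr1 (-0.51), Mertk (-0.48) and C1qb (-0.44) were lower (edgeR adjusted p = 6.72e-05, 0.00229, 0.000406 and 0.000544), beside -0.42 for Tiparp and -1.72 for Ahrr. Adgre1 (-0.33) and Lyz2 (-0.17) were also called lower (edgeR adjusted p = 0.00318 and 0.0491). The 4 other macrophage markers were not called. Of these, Cd68 (0.25, edgeR adjusted p = 0.0507), Cd14 (0.10) and Itgam (0.03) had estimates above 0, and Csf1r (-0.07) lay below. The summed level of the 10 was 19529 to 20315 CPM in controls and 17275 to 18353 in MNP libraries, most of it Lyz2. The part of these macrophage, dendritic cell and neutrophil markers in the decrease of Ahrr and Tiparp was not tested. Summed levels of 5 B cell markers were at most 2.26 CPM in a library, those of 5 T cell markers at most 0.783, those of 6 stromal fibroblast markers at most 1.43, those of 6 mast cell and basophil markers at most 2.92 and those of 6 erythroid markers at most 1.83. Among these markers, Cd3e and Cma1 had 0 counts in all 6 libraries.

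The genes whose pattern over the 6 libraries lay nearest to each AhR gene were taken by the root mean square difference of centred log2 CPM, among the 8109 other genes tested whose mean reached 10 CPM. For Ahrr these were Itgal, Mmp14 and Arl5c, at distances of 0.11 to 0.16, beside a spread of Ahrr itself of 0.86 on the same scale. Their log2 fold changes were -1.59, -1.57 and -1.58. For Tiparp the nearest were Serpinb8, Stab1 and Pfkfb3 (distances 0.026 to 0.033, spread of Tiparp 0.21), and for Ahr they were Sort1, Septin9 and Sptlc2 (0.027 to 0.037, spread of Ahr 0.18). The neighbours of Arnt were Thoc3, Sgta and Ankrd50, and those of Il4i1 were Slc26a11, Cul9 and Psmb10. With 6 libraries in 2 groups, such nearness mostly reflects a like difference between the groups.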

How the data were processed

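Whole-number counts per gene symbol, as deposited by the authors with 1 file per library, were used for 3 control and 3 MNP libraries, grouped by sample title. Total RNA went into CORALL RNA-seq V2 libraries, per the labels' protocols. The submitters' processing notes name build GRCm39 and the tools STAR, Salmon, fastp and GATK, without their roles or versions. How strand, molecular identifiers and rounding were treated, and with which annotation, is not given in the sources used here, so reads of overlapping genes cannot be told apart.

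Replicate pairs differed by chi-square of 6.65 to 17.6 per degree of freedom, so none was counted as 1 sample. Counts were tested in edgeR 4.0.16 (R 4.3.3) with the default filter, TMM factors and the quasi-likelihood test of MNP minus control, adjusted by Benjamini-Hochberg over 12893 genes. The SE is the size of the log2 fold change divided by the root of its F statistic, and intervals use the test's degrees of freedom. The steps were tested on simulated data. Alternatives were other scalings, filters and thresholds, DESeq2 1.42.0, limma-voom (limma 3.58.1), a replicate block, leaving out mitochondrial genes with the 20 most abundant ones, and leaving out each library. Members and lists were chosen with earlier results of these data known. The rule for named genes took the 6 members, up to 4 called genes per list by p-value, the 3 nearest patterns per tested member, and overlapping genes, and not every gene that the rule takes, nor every list member, is reported here. Upstream sequences came from RefSeq (GRCm38.p6) and were matched by symbol for 5 of 6 members. Coordinates belong to that build only.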

Additional observations from a re-analysis of the deposited data

How the results depend on the processing

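The 2 calls, Ahrr and Tiparp lower, held under every alternative run, and no further member was called in any of them, with the count of called members at 2 throughout and also when any 1 library was left out (2 to 2). The log2 fold change ran from -1.82 to -1.64 for Ahrr, -0.51 to -0.39 for Tiparp, 0.25 to 0.38 for Ahr (adjusted p 0.0706 to 0.193), -0.13 to -0.01 for Arnt and -0.66 to -0.29 for Il4i1, and no member changed direction. Ahr and Il4i1 fell under the stricter filter, a mean of 10 CPM, and so have no value there, and Cyp1b1 was tested only with no filter. Over all genes, an adjusted p under 0.01 left 1272 calls (685 higher, 587 lower) of 2250, and library totals alone, which moved the median of all tested genes to -0.10, gave 757 higher and 1941 lower. Leaving out 1 library gave 1471 to 2245 calls (793 to 1241 higher, 672 to 1004 lower), the fewest without MNP 2. The replicate block gave 2686 calls and changed no member's call. Same-numbered libraries showed little shared deviation (correlations of deviations 0.087, 0.028 and -0.022). With so few libraries in a group, this cannot decide whether the numbers pair the samples. A library left alone with 1 partner is assumed to vary like the other group. Depth limits Cyp1b1 and Il4i1, which had at most 7 and 67 counts a library.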

Other observations

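Tiparp belongs to the PARP family. Of 17 tested PARP and macrodomain hydrolase genes, 6 were lower with MNP and 0 higher (median log2 fold change -0.33). Of all tested genes, 8.35% were called lower and 9.11% higher. Parp14 and Parp9, both known as interferon-inducible, fell from 387 ± 35.4 to 198 ± 13.3 CPM (edgeR adjusted p = 8.04e-07) and from 80.4 ± 9.55 to 44.1 ± 3.42 CPM (edgeR adjusted p = 1.59e-05). Parp12 fell by 0.49 and Parp8 by 0.44 on the log2 scale (edgeR adjusted p = 0.00129 and 0.00215). Parp11 fell by 0.42 and Parp3 by 0.33 (edgeR adjusted p = 0.0207 and 0.0223). Parp1 and Parp2, which encode DNA repair enzymes, and the tankyrase genes Tnks and Tnks2 were not called. Their log2 fold changes lay between -0.16 and 0.08.

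Electron donors and conjugating enzymes around cytochrome P450 split, with 3 of 7 tested genes higher and 1 lower. Of all tested genes, 9.11% were called higher and 8.35% lower. Cyb5a, cytochrome b5, rose from 193 ± 13.7 to 322 ± 22.2 CPM (edgeR adjusted p = 5.32e-06), while the P450 reductase gene Por was at 235 ± 7.97 and 230 ± 13.9 CPM (edgeR adjusted p = 0.777). The sulfotransferase gene Sult1a1 fell from 5.58 ± 0.333 to 2.55 ± 0.455 CPM (edgeR adjusted p = 0.00183). Cyb5b and Cyb5r3 were called higher (edgeR adjusted p = 0.0104 and 0.0192), but both calls were lost with library totals alone (0.0652 and 0.119) and without control 2 (0.0560 and 0.0836) or MNP 2 (0.0716 and 0.0824), and that of Cyb5r3 also without MNP 3 (0.0836).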
